A study of Homo sapiens with 28 samples.

Results

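The 1024 regions described here carried a called histone H3 lysine 27 acetylation (H3K27ac) region in both libraries made from IL-13-treated EPC2 cells and in neither library made without IL-13. They were taken from the 69707 regions of the IL-13 H3K27ac list as those that shared at least 1 base with a region of the list for IL-13 plus vitamin D and no base with any region of the vitamin D or untreated lists. The H3K27ac calls of all 4 libraries therefore chose the members, and their H3K27ac values are a description, not a finding. EPC2 is a human line of esophageal epithelial cells that has been immortalised. They were treated for 6 h with IL-13 (100 ng/ml), with IL-13 plus vitamin D (100 nM), with vitamin D alone, or were left untreated. Chromatin immunoprecipitation (ChIP) with 1 library per antibody and treatment covered H3K27ac, H3K9ac and H3K4me3 in all 4 treatments, STAT6 in IL-13-treated and untreated cells, and the vitamin D receptor (VDR) in vitamin D-treated and untreated cells. RNA was sequenced from 3 samples of each treatment, and the labels do not say whether these were separate cultures.

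H3K27ac is laid down at active enhancers and promoters. IL-13 binds a receptor made of the IL-4 receptor alpha chain and IL-13RA1, whose Janus kinases phosphorylate STAT6. Phosphorylated STAT6 pairs up, enters the nucleus and binds DNA where the letters TTC and GAA stand a short spacer apart. In esophageal epithelium IL-13 is best known for inducing the eosinophil chemoattractant CCL26 and the protease CAPN14 in eosinophilic esophagitis.

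The promoters of 4 genes that carried members and were higher with IL-13 are shown first, because the text returns to them. CISH held 6 members along its body and 5′ flank, and a member lay within 400 bases of the start of CAPN14, EDNRA and FAM26E (now CALHM5). Each sequence is the 250 bases before a start in RefSeq (GRCh38.p14), 5′ to 3′ along the gene, with the letters TTC, any 3 or 4 bases and then GAA (TTCNNNGAA and its form with 1 more base, each the same on both strands) in capitals. RefSeq lists 2 starts for CAPN14, and both are given.
CISH, chr3:50611775-50612024, minus strand: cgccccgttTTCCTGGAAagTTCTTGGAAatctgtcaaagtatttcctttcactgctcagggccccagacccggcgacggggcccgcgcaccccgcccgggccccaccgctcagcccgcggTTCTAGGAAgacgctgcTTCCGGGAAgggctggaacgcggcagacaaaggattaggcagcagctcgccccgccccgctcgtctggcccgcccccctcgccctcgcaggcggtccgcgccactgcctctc
CAPN14, chr2:31217516-31217765, minus strand: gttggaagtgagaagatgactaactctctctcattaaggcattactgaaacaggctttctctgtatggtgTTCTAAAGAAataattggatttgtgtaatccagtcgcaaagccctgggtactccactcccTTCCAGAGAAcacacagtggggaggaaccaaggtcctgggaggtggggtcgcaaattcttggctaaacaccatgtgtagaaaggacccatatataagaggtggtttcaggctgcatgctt
CAPN14, chr2:31233958-31234207, minus strand: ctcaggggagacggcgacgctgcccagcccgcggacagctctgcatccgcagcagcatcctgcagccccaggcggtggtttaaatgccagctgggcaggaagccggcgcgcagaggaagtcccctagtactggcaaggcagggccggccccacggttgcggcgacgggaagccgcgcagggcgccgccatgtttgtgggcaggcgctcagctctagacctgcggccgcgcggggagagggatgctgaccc
EDNRA, chr4:147480847-147481096, plus strand: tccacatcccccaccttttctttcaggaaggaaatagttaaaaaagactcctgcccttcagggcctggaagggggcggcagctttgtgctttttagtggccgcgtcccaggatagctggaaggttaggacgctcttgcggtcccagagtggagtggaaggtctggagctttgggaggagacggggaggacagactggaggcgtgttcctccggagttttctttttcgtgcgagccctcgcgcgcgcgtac
FAM26E, chr6:116511389-116511638, plus strand: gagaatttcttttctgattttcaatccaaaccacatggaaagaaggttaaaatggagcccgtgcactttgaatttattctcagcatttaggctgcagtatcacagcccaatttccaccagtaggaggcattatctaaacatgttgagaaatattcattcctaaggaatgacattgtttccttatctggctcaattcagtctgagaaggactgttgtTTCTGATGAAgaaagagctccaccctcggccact

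The CISH window held 4 copies with the 3-base spacer, and 1 CAPN14 window held 2 copies with the 4-base spacer. FAM26E held 1 copy and EDNRA none. Of all 35097 such windows in RefSeq, 11.5% held either spelling, 5.38% the 4-base spacer and 6.56% the 3-base spacer. Of the 49 genes that the authors' deposited table calls higher with IL-13 and whose start lay within 5 kb of a member, 42 matched the promoter table, and 10.6% of their 66 windows held either spelling. For all genes with a start within 5 kb of a member, called or not, 7.46% of 134 windows did. A match is a description of letters, and the build differs from that of the peak lists (hg19), so matches were not placed on the called regions. The members' own sequences were not analysed here.

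The members were short and weakly enriched regions. In the IL-13 library their width had a median of 208.5 bases (146 to 2695), with 274 at the 146-base minimum of the list. Their median pileup was 6 reads (4 to 16). Their median fold enrichment over background, the authors' own value for each region, was 4.63 (3.31 to 11.2). In the combination library the overlapping regions had a median fold enrichment of 4.47 (3.19 to 25.6). The other 68683 regions of the IL-13 list were wider, with a median of 356.0 bases and a median fold enrichment of 5.29. The strongest members were an intergenic region beyond PIK3CG, a phosphoinositide kinase gene (chr7:106412656-106414027, 11.2-fold with IL-13 and 9.58-fold with the combination), an exonic region of UTRN, the utrophin gene (chr6:144814436-144815571, 11.2-fold with IL-13 and 6.39-fold with the combination), and intronic regions of VWF and PTPN3, both 10.6-fold with IL-13. The VWF region (chr12:6187216-6189910) was also the widest, followed by a 1494-base intronic region of RBM47, the PIK3CG region, a 1286-base region upstream of DSC3, the gene for the epithelial cadherin desmocollin 3, and a 1274-base intronic region of TAMM41. All of these widest regions held STAT6.

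At the edge of the rule, 46 members shared fewer than 20 bases with the combination list and 59 lay fewer than 20 bases from an excluded region. Just outside it, 83 regions shared fewer than 20 bases with an excluded list and 57 lay fewer than 20 bases from a combination region. Many members flanked acetylated chromatin that the other lists also held. The median distance to the nearest vitamin D or untreated H3K27ac region was 361 bases; 646 members lay within 1000 bases of one and 378 lay farther away. The lists held 69707 regions with IL-13, 72629 with the combination, 67183 with vitamin D and 91881 in untreated cells. The untreated list was the longest, and 863 members lay nearer to an untreated than to a vitamin D region. Read totals were not in the files. The median background implied by pileup and fold enrichment was 1.51 with IL-13, 1.57 with the combination, 1.73 with vitamin D and 2.40 in untreated cells, and the part that this difference in depth plays in the membership was not tested.

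**Figure D1:**
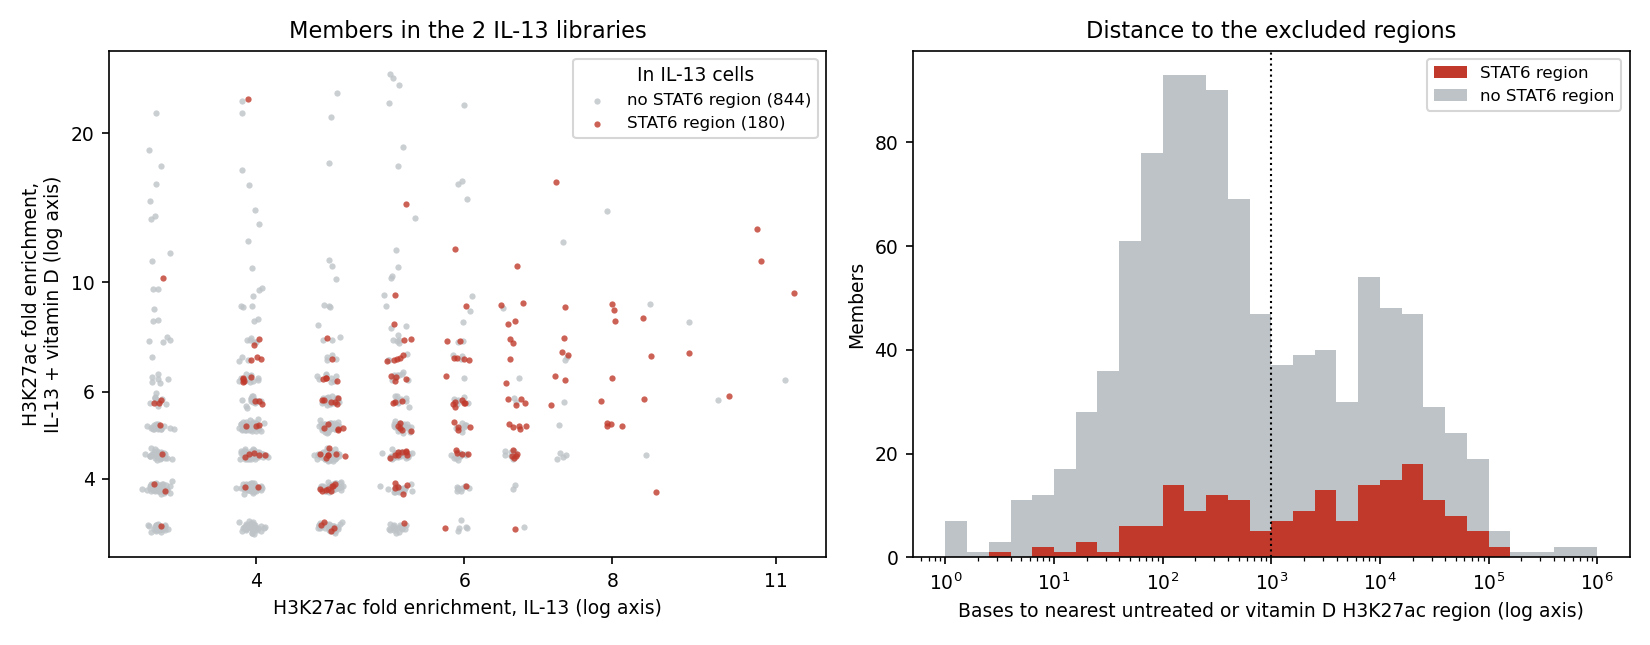
Left: H3K27ac fold enrichment of each of the 1024 members in the IL-13 library (x, log axis) and in the IL-13 plus vitamin D library (y, log axis), with a small random shift because values come in steps; red points share a base with an IL-13 STAT6 region. Right: number of members by distance to the nearest vitamin D or untreated H3K27ac region in bases (log axis, 0 drawn at 1, dotted line at 1000). STAT6 regions coincide with 28.8% of the 378 members beyond 1000 bases and with 71 of the 646 within it.

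The members lay mostly away from gene starts. The authors' annotation put 43.8% of them in introns, 38.8% between genes, 9.96% upstream of genes, 4.88% in exons and 2.64% at promoters. Of the other IL-13 H3K27ac regions, 34.9% were intronic, 27.1% intergenic and 22.3% at promoters. Only 56 of the 1024 members lay within 2000 bases of a gene start of the RNA tables, and the median distance was 44444.5 bases. The members formed 816 loci when those up to 20000 bases apart were joined. Of these, 677 held 1 member, 98 held 2 and 41 held 3 or more.

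STAT6, the transcription factor that IL-13 signalling activates, was called in IL-13-treated cells at 180 of the 1024 members, or 17.6% (exact 95% interval 15.3 to 20.1%, covering counting error only). In untreated cells 6 members (0.586%) held a STAT6 region. The other regions of the IL-13 H3K27ac list held an IL-13 STAT6 region in 3.68% of cases, regions found in all 4 lists in 4.32%, and the 759 regions gained in both vitamin D libraries, chosen by the mirror-image rule, in 1.45%. The 5829 untreated and vitamin D regions absent from both IL-13 lists held one in 0.858%, and the 3948 IL-13 regions in no other H3K27ac list in 2.58%. These shares come from 1 library per treatment, so no test was made. The IL-13 STAT6 list was longer than the untreated one (4802 and 1126 regions) and its implied background was higher (4.05 and 2.46).

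STAT6 often lay beside a member, not at its centre. Within 1000 bases of an IL-13 STAT6 region lay 33.1% of members and 5.57% of the other IL-13 H3K27ac regions. Within 10000 bases the shares were 47.4% of members and 12.5% of the others. The 180 members shared bases with 155 separate STAT6 regions, and the STAT6 summit fell inside the member in 66 of the 180. As a description, STAT6 was held by 24.9% of the 591 members at or above the median fold enrichment and 7.62% of the 433 below it. The more enriched members were also wider (median 249 bases against 170), and the part that width plays was not tested. When the IL-13 and combination regions were limited to a -log10 q of 5 or more, 82 members were left, of which 59.8% held STAT6. When all 4 lists were so limited, the rule gave 216 regions, 82 of them among the 1024, and 50.9% held STAT6, against 6.05% of the other IL-13 regions at that limit.

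The highest STAT6 fold enrichment at a member was 25.9-fold, at an intronic member of the gene with transcript NM_017418 (chr9:117930035-117930699, hg19), in a locus of 3 members at -46559 to -49499 bases from the start of TNC, the gene for the matrix protein tenascin C. It was followed, at 19.3-fold each, by an exonic member of LOC100507410 upstream of C1QTNF1 (chr17:77015853-77016705) and by a pair of members in PDE6A on 1 STAT6 region (chr5:149239956-149240795 and chr5:149240888-149241103). They were followed by intergenic members assigned to CDK19 (19.0-fold), PCDH10 (16.6-fold, a pair that shared 1 STAT6 region) and LOC643723 (15.3-fold) and by a member upstream of NFE2 (16.1-fold).

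H3K9ac, a second acetylation mark of active chromatin that the rule did not use, was called at 87 members with IL-13 (8.50%) and at 114 with the combination (11.1%), against 19 with vitamin D (1.86%) and 20 in untreated cells (1.95%). The mark was thus called at the members more often in both IL-13 libraries than in either library without IL-13. The other IL-13 H3K27ac regions showed no such split: 39.2% held H3K9ac with IL-13, 40.5% with the combination, 42.4% with vitamin D and 40.8% in untreated cells. The regions gained in both vitamin D libraries were marked in the mirror-image pattern, 3.69% with IL-13, 7.77% with the combination, 8.70% with vitamin D and 2.11% in untreated cells. At 28 members (2.73%) H3K9ac was called in both IL-13 libraries and neither other library, against 1.35% of the other IL-13 H3K27ac regions. The reverse held at 2 members (0.195%), against 2.01% of the other IL-13 regions. The 28 included 4 of the 6 CISH members, the VWF and PIK3CG members above, and members in ANO1 and at KRT8, and 12 of them also held STAT6. With a -log10 q of 5 or more asked of H3K9ac, only 8 members were marked with IL-13, 11 with the combination, 1 with vitamin D and 7 in untreated cells, so the split rests on weak H3K9ac calls.

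**Figure D2:**
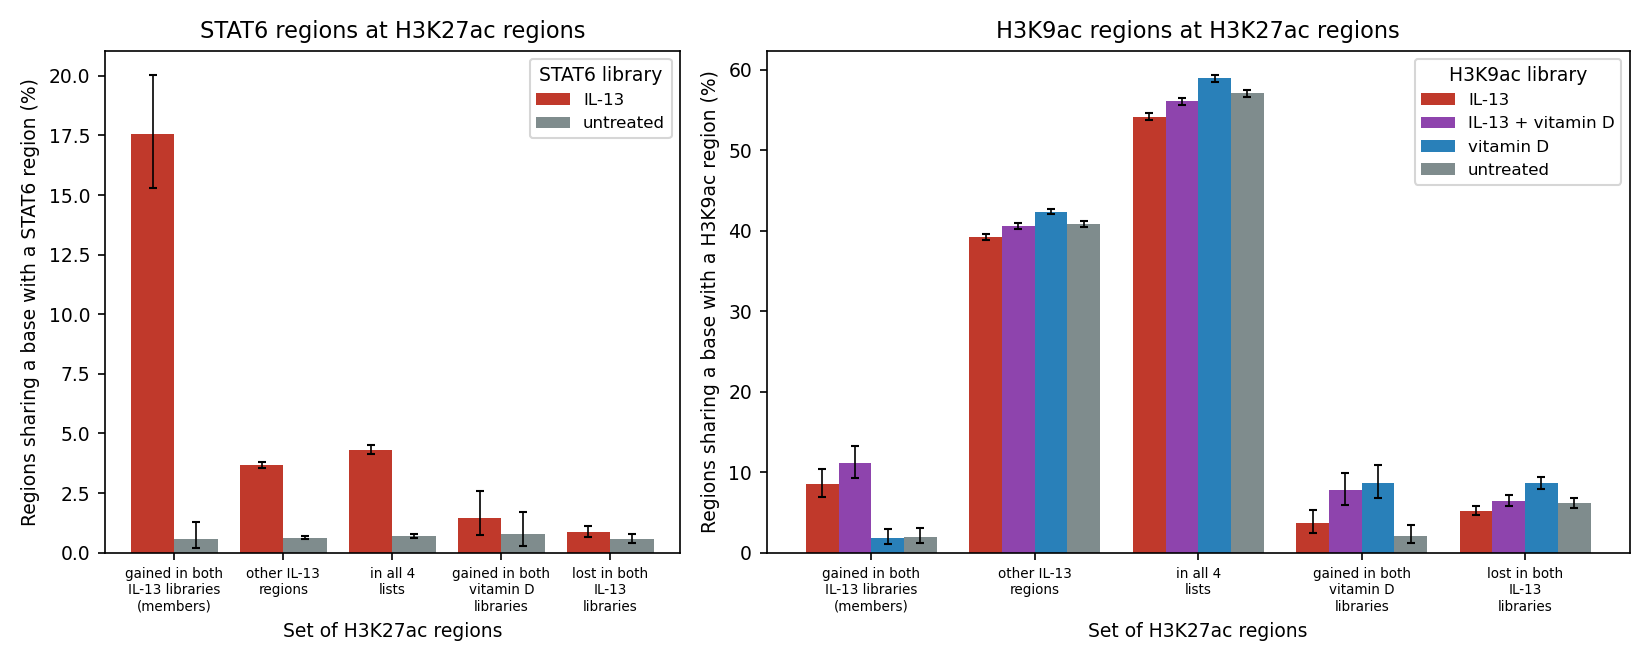
Share of H3K27ac regions (%, y) that share at least 1 base with a STAT6 region (left) or an H3K9ac region (right), by set of H3K27ac regions (x) and treatment of the STAT6 or H3K9ac library (colour); bars are 1 library each and whiskers are exact 95% binomial intervals for counting error. The members stand at 17.6% for IL-13 STAT6, and at 8.50% and 11.1% for H3K9ac in the IL-13 libraries against 1.86% with vitamin D and 1.95% in untreated cells.

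H3K4me3, the mark of active promoters, was rare at the members and called at similar numbers in the 4 treatments. It was called at 27 members with IL-13, 33 with the combination, 29 with vitamin D and 25 in untreated cells, and 18 held it in all 4. Of the other IL-13 H3K27ac regions 27.9% held H3K4me3 with IL-13. VDR, the nuclear receptor that vitamin D activates, was called at 20 members with vitamin D (1.95%) and 2 in untreated cells. With vitamin D it was called at 7.40% of the other IL-13 regions and 20.6% of the regions gained in both vitamin D libraries. The VDR list was longer with vitamin D than in untreated cells (9224 and 1828 regions).

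Genes near the members were more often higher with IL-13 than genes in general, as read from calls in the authors' deposited tables (adjusted p under 0.05). A start lay within 50 kb of a member for 822 genes, of which 638 had an adjusted p below 1 for IL-13 against untreated cells and were taken as tested. Of these, 190 (29.8%) were higher with IL-13 in the authors' deposited table, where 12.3% of all 15172 tested genes were, and 69 (10.8%) were lower, where 14% of all were. A change of at least 2-fold was called higher for 41 of the 638 (6.43%), against 0.804% of all tested genes. It was called lower for 2 (0.313%), against 0.389% of all. Put the other way, 33.6% of the 122 genes raised at least 2-fold had a member within 50 kb, as did 3.39% of the 59 genes lowered at least 2-fold and 4.21% of all tested genes. In bulk RNA, more cells expressing a gene and more RNA per cell cannot be told apart. Genes share loci and members, so these counts are not independent, and no test was made of them.

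The same genes moved on top of vitamin D. In the authors' deposited table for the combination against vitamin D, which shares no library with the first, 216 of 629 genes near members (34.3%) were higher, where 16.4% of all tested genes were, and 86 (13.7%) were lower, where 16.9% of all were. At least 2-fold, 50 (7.95%) were higher, against 1.1% of all, and 1 (0.159%) lower, against 0.511% of all. Of the 625 near genes tested in both tables, 173 were higher in both (9.28% of all genes were), 55 lower in both (11.2% of all genes were) and 0 moved in opposite directions. Across those 625 genes the 2 sets of log2 fold changes had a Pearson r of 0.94, and across all 14769 genes tested in both 0.84; genes are not independent replicates. The combination against untreated cells, which shares the untreated samples with the first table, gave 237 of 671 higher (35.3%, 16% of all) and 88 lower (13.1%, 15.7% of all) in the authors' deposited table. At least 2-fold, 62 (9.24%) were higher, against 1.83% of all, and 10 (1.49%) lower, against 1.45% of all. Vitamin D alone against untreated cells gave 156 of 635 higher (24.6%, 17.5% of all) and 116 lower (18.3%, 15.1% of all) in the authors' deposited table. At least 2-fold, 12 (1.89%) were higher, against 1.25% of all, and 6 (0.945%) lower, against 0.455% of all.

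The share of genes raised by IL-13 was largest close to the members. In the authors' deposited table for IL-13 against untreated cells, 49 of 113 tested genes with a start within 5 kb of a member were higher (43.4%) and 11 lower. From 5 to 20 kb 26.2% of 168 genes were higher, from 20 to 50 kb 27.2% of 357, from 50 to 100 kb 20.3% of 552 and from 100 to 200 kb 17.3% of 1005. The share of genes lower stayed between 9.52% and 14.3% in these ranges. Near members with STAT6, 39 of 94 tested genes (41.5%) were higher and 5 lower in the authors' deposited table, and near members without STAT6 alone 151 of 544 (27.8%) were higher and 64 lower. Of the 38 tested genes with 3 or more members within 50 kb, 31 were higher and 0 lower in the authors' deposited table, and 7 did not pass. With 1 member 24.9% of 515 genes were higher, and with 2 members 36.5% of 85. Of all tested genes 12.3% were higher and 14% lower. Neighbours among the 38, such as DUOX1 and DUOX2, share members, so these genes are not independent.

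**Figure D3:**
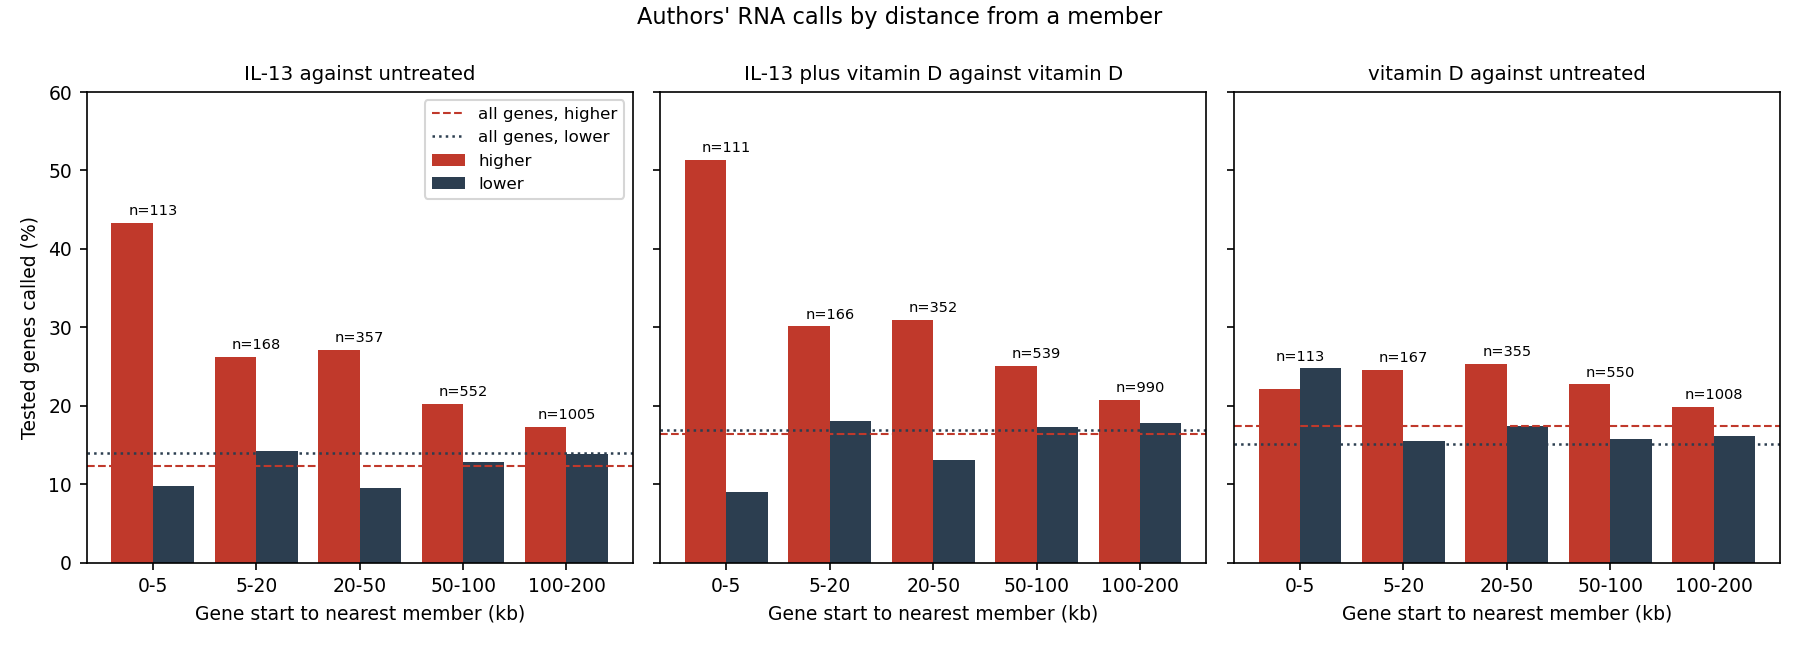
Percent of tested genes (y) that the authors' deposited tables call higher (red) or lower (dark) at an adjusted p under 0.05, by distance of the gene start from the nearest member in kb (x), for IL-13 against untreated, the combination against vitamin D, and vitamin D against untreated; lines give the percent over all tested genes. With IL-13, 43.4% of the 113 genes within 5 kb were higher, against 12.3% of all genes.

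Genes near other sets of H3K27ac regions gave other shares. Near the regions gained in both vitamin D libraries, the authors' deposited tables call 13.6% of genes higher and 20.3% lower with IL-13, and 38.8% higher and 8.32% lower with vitamin D. Near the regions absent from both IL-13 lists, 431 of 4323 tested genes (9.97%) were higher and 950 (22%) lower with IL-13 in the authors' deposited table. Near the 3948 IL-13 regions in no other H3K27ac list, 16.4% were higher and 16.6% lower with IL-13. At least 2-fold, 1.91% were higher there, against 0.804% of all tested genes. Of all tested genes 12.3% were higher and 14% lower with IL-13, and 17.5% higher and 15.1% lower with vitamin D.

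Of the 12 genes with the largest rises near members, 11 are described here: CAPN14, SERPINB4, CCL26, RASGRP1, FAM26E, TNC, RASL11B, CISH, DPYD, C1QTNF1 and NFE2. All 11 were higher with the combination than with vitamin D in the authors' deposited table, and with vitamin D alone 2 were called higher (CAPN14 and NFE2) and 3 lower (SERPINB4, RASGRP1 and FAM26E). A STAT6-holding member lay within 50 kb of 7 of the 11 and 2 or more members within 50 kb of 7. Of the 638 tested genes near members, 94 had a STAT6-holding member within 50 kb, 85 had 2 members and 38 had 3 or more. RPKM values are the authors' 1 value per group, with no spread over the samples, and for genes near 0 the authors' fold change is smaller than the ratio of their RPKM values.

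CAPN14, the calcium-dependent protease calpain 14 of the esophageal epithelium, stood at 357.7 RPKM with IL-13 and 463.2 with the combination, against 14.8 with vitamin D and 10.2 in untreated cells. The authors' deposited table gives a log2 fold change of 5.08 for IL-13 against untreated cells, 4.87 for the combination against vitamin D and 0.59 for vitamin D against untreated cells. Its member lay 214 bases downstream of the start (chr2:31440036-31440197), 4.63-fold with IL-13 and 4.47-fold with the combination, and 176 bases from an untreated region. The IL-13 STAT6 region at this start (chr2:31440418-31440654, 4.20-fold) ended 7 bases before the start and did not overlap the member. A called H3K27ac region spanned the start with IL-13 (1112 bases), with the combination (452 bases) and in untreated cells (281 bases), and none did with vitamin D. Over the 50 kb on either side of the start the order differed: H3K27ac covered 2563 bases with IL-13 and 2692 with the combination, against 1254 with vitamin D and 3206 in untreated cells.

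CISH, a feedback inhibitor of cytokine receptor signalling, stood at 23.3 RPKM with IL-13 and 27.8 with the combination, against 4.24 with vitamin D and 3.90 in untreated cells, a log2 fold change of 2.49 for IL-13 against untreated cells in the authors' deposited table. Its start lay in a broad H3K27ac region in all 4 libraries, and 5 members lay between 2120 and 5201 bases downstream, a stretch in which neither list without IL-13 had a region. The strongest (chr3:50644061-50644608) was 9.92-fold with IL-13 and 5.75-fold with the combination. None held STAT6: the nearest IL-13 STAT6 region, at 24.5-fold, lay 9514 bases downstream of the start. On the upstream side of the start no STAT6 region was called within 10 kb. The 4 motif copies of the CISH window printed above come from another build and were not placed against these calls. The neighbouring genes MAPKAPK3, HEMK1 and C3orf18 were also higher with IL-13 in the authors' deposited table, by log2 0.36, 0.30 and 0.53.

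**Figure D4:**
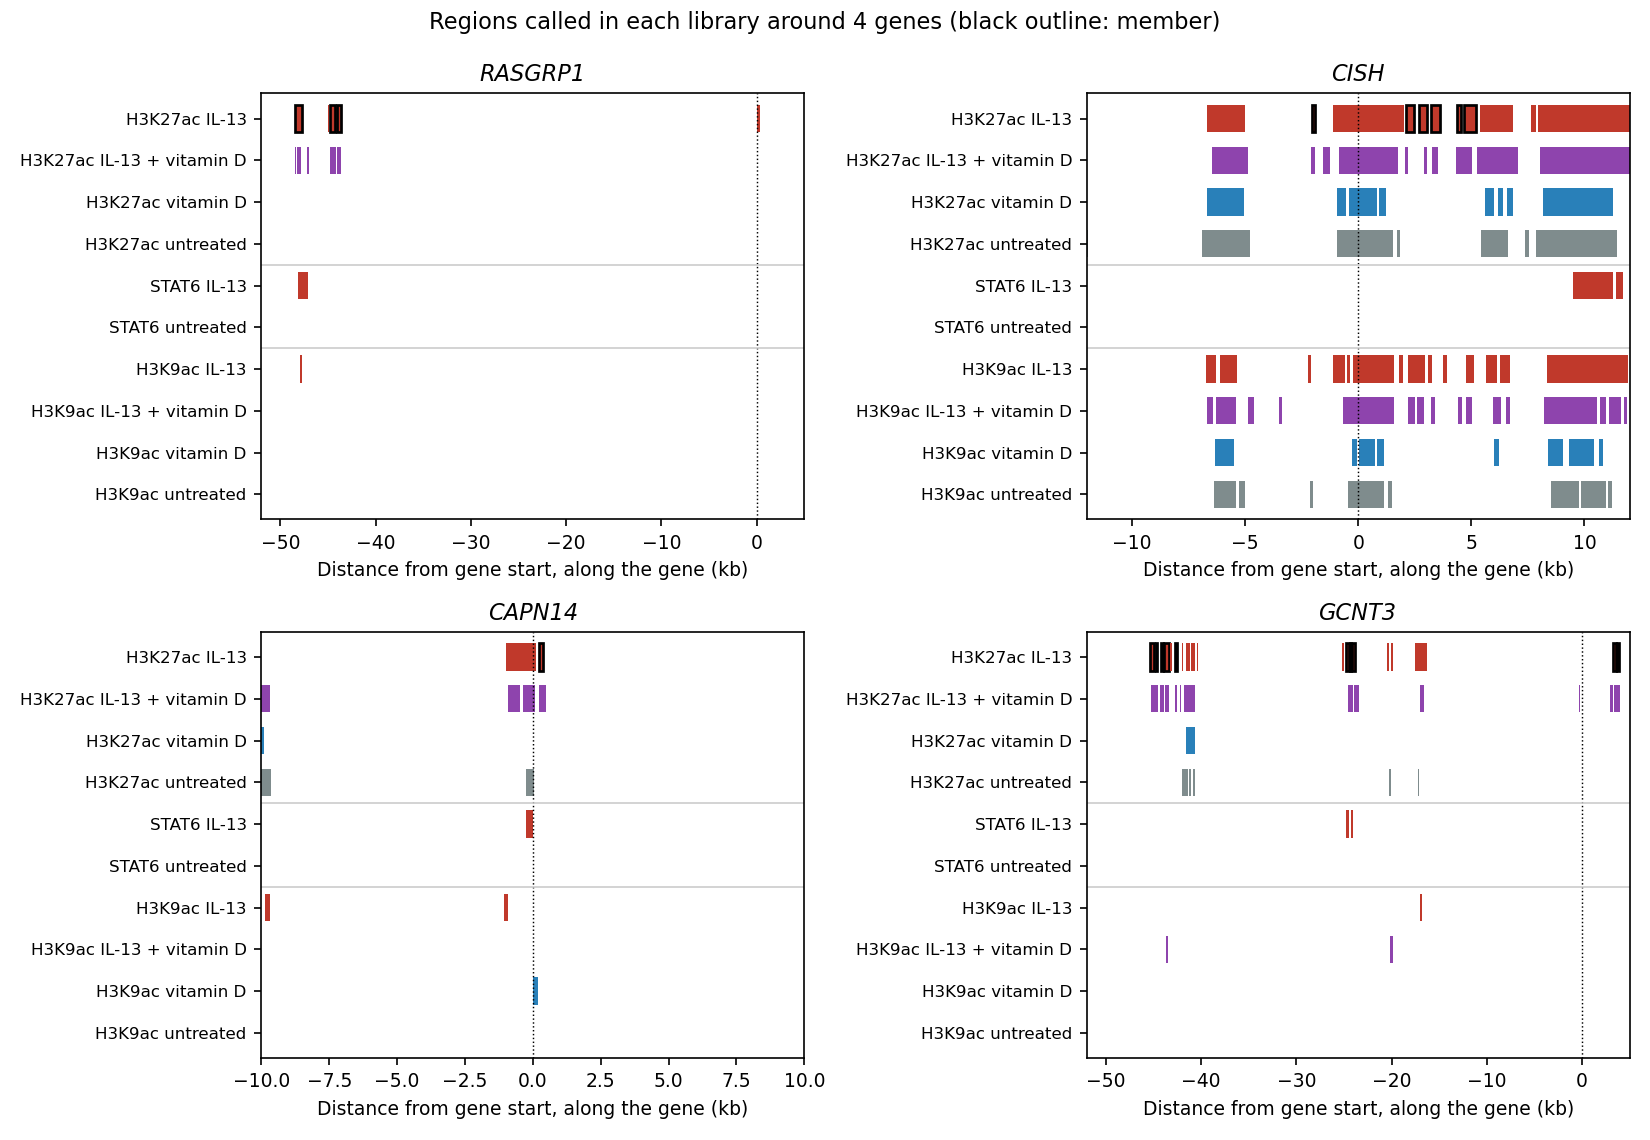
Regions called in each H3K27ac, STAT6 and H3K9ac library (rows, coloured by treatment) around RASGRP1, CISH, CAPN14 and GCNT3, by distance from the gene start along the gene in kb (x); black outlines mark members. Within 50 kb of the RASGRP1 start the IL-13 library had 5 H3K27ac regions and the combination library 6, against 0 with vitamin D and 0 in untreated cells.

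SERPINB4 and SERPINB3, epithelial serine protease inhibitors, shared a locus with 3 members on chromosome 18. SERPINB4 stood at 100.1 RPKM with IL-13 and 34.7 with the combination, against 1.56 with vitamin D and 3.28 in untreated cells, and SERPINB3 at 381.3 and 152.3 with IL-13 and the combination, against 25.6 with vitamin D and 105.6 in untreated cells. The authors' deposited table gives log2 fold changes of 4.81 and 1.82 for IL-13 against untreated cells. The genes are near-identical copies, so reads may have been split between them and each value is uncertain. The SERPINB3 intragenic member (chr18:61325586-61326586) was 7.94-fold with IL-13 and held STAT6 at 3.95-fold. No H3K27ac region lay within 10 kb of the SERPINB4 start with vitamin D or in untreated cells, against 4 with IL-13 and 2 with the combination.

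CCL26, the eotaxin-3 chemokine that attracts eosinophils, stood at 7.85 RPKM with IL-13 and 9.73 with the combination, against 0.0173 with vitamin D and 0.0189 in untreated cells, a log2 fold change of 3.73 for IL-13 against untreated cells in the authors' deposited table. Its 2 members (chr7:75401056-75401614 and chr7:75401735-75402535) were annotated by the authors as promoter regions of CCL26 and held 1 STAT6 region of 4.20-fold between them. They lay 16529 and 17450 bases into the gene by the start that the RNA tables use. CCL24, another eotaxin, had its start within 50 kb of the same members but stayed at 0.132 RPKM or less in every group and was not tested.

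RASGRP1, an exchange factor that activates Ras, stood at 1.62 RPKM with IL-13 and 1.93 with the combination, against 0.0457 with vitamin D and 0.113 in untreated cells, and the authors' deposited table gives a log2 fold change of 3.22 for IL-13 against untreated cells. Its 3 members clustered 43604 to 47740 bases upstream, where the farthest (chr15:38904747-38905426) held STAT6 at 13.3-fold. Within 50 kb of the start there were 5 H3K27ac regions with IL-13 and 6 with the combination, and 0 with vitamin D or in untreated cells. TNC stood at 160.1 RPKM with IL-13 and 152.9 with the combination, against 19.0 with vitamin D and 20.8 in untreated cells. The authors' deposited table gives TNC a log2 fold change of 2.90 for IL-13 against untreated cells, and the gene of transcript NM_017418, whose intron holds the members, one of 1.06.

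FAM26E (CALHM5), of the calcium homeostasis modulator family, stood at 6.55 RPKM with IL-13 against 0.638 in untreated cells, with a member 224 bases downstream of its start (chr6:116833032-116833400) and its 3 members lay 20472 bases or more from the nearest IL-13 STAT6 region. C1QTNF1, a C1q- and TNF-related secreted protein, stood at 9.46 RPKM with IL-13 against 1.82 in untreated cells, and 2 of its 3 members held STAT6. NFE2, a transcription factor of blood cells, stood at 1.70 RPKM with IL-13 and 4.82 with the combination, against 0.460 with vitamin D and 0.172 in untreated cells, and its single member carried the 16.1-fold STAT6 region. DPYD, which degrades pyrimidines, stood at 5.84 RPKM with IL-13 against 1.01 in untreated cells, with 1 intronic STAT6-holding member. RASL11B, a small Ras-like GTPase, stood at 4.53 RPKM with IL-13 against 0.585 in untreated cells, and its member 35588 bases upstream held no STAT6. EDNRA, the endothelin A receptor, was not among them but had a member 161 bases before its start; it stood at 3.12 RPKM with IL-13 against 0.638 in untreated cells, and the authors' deposited table gives a log2 fold change of 2.11.

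**Figure D5:**
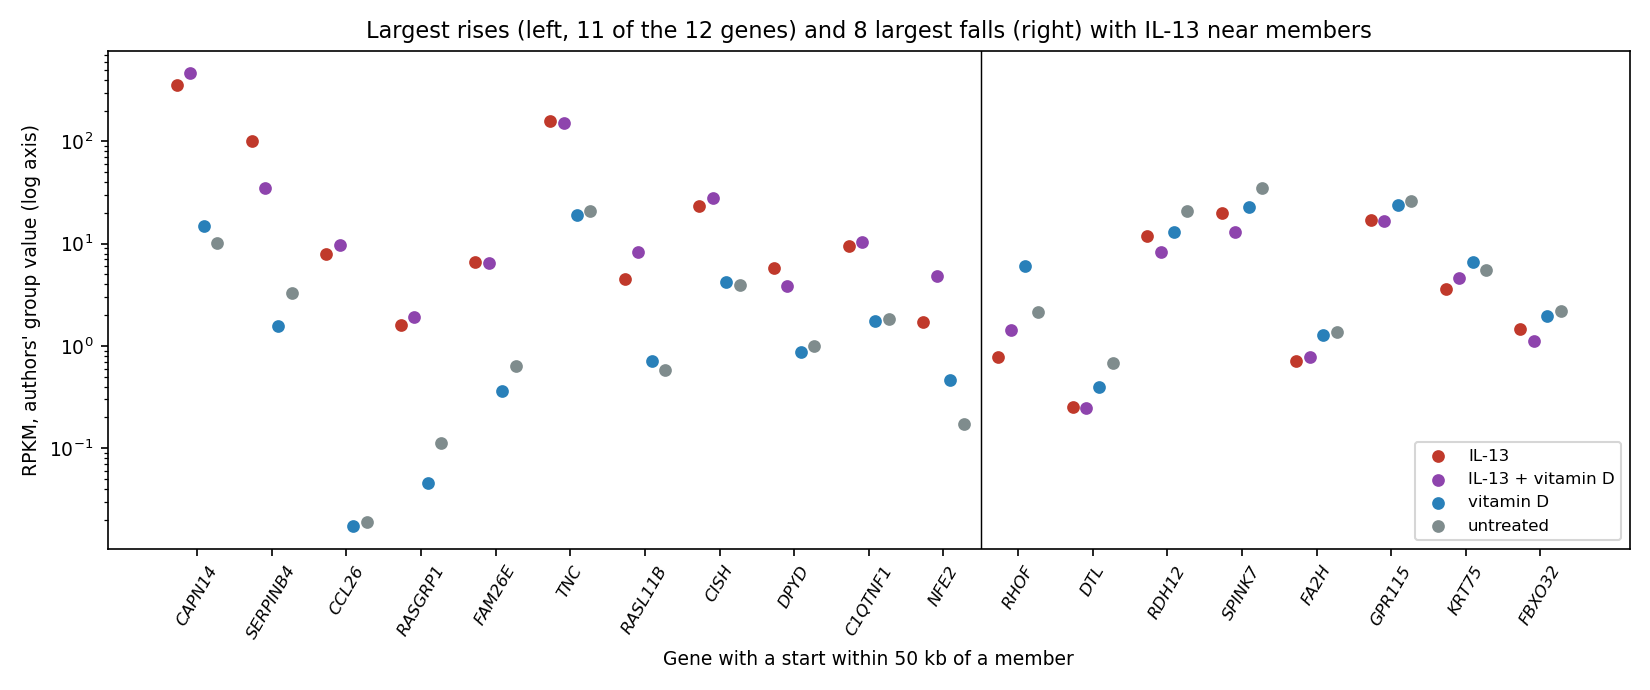
RPKM of 11 of the 12 genes with the largest rises and of the 8 with the largest falls with IL-13 among genes with a start within 50 kb of a member (y, log axis; 1 value of the authors per group and no error bars, since the files hold no value per sample). For all 11 genes on the left both IL-13 groups lie above both groups without IL-13, and for all 8 on the right the IL-13 group lies below the untreated group.

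Several other loci held 3 or more members near genes that rose by less than the 11 above. GCNT3, a mucin-type glycan branching enzyme, had 10 members within 50 kb of its start, 3 of them on STAT6 regions at -24023 and -24472 bases from the start and 2 inside the gene. It stood at 5.32 RPKM with IL-13 and 24.2 with the combination, against 5.36 with vitamin D and 0.968 in untreated cells, and the authors' deposited table gives log2 fold changes of 2.23 for IL-13 and 2.37 for vitamin D, each against untreated cells. PKD2, the polycystin 2 ion channel, had 7 members in its introns and stood at 8.55 RPKM with IL-13 against 2.85 in untreated cells, a log2 fold change of 1.53 in the authors' deposited table. DUOX1 and DUOX2, which produce hydrogen peroxide at epithelial surfaces, and their maturation factors DUOXA1 and DUOXA2 shared 6 members on chromosome 15. DUOX1 stood at 78.6 RPKM with IL-13 against 39.8 in untreated cells and DUOXA1 at 98.2 against 42.0. The authors' deposited table gives the 4 genes log2 fold changes of 0.95 to 1.19. None of the 6 members held STAT6, and the nearest IL-13 STAT6 region to the DUOX1 start lay 26390 bases downstream at 23.5-fold. PTPN4, a tyrosine phosphatase (6 members), and LTA4H, a leukotriene-forming hydrolase (3 members), stood at 4.16 and 187.0 RPKM with IL-13, against 2.07 and 76.4 in untreated cells.

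The 8 largest falls near members were smaller than the rises. RHOF, a small GTPase of filopodia, stood at 0.770 RPKM with IL-13 and 1.43 with the combination, against 6.07 with vitamin D and 2.15 in untreated cells, a log2 fold change of -1.28 for IL-13 against untreated cells in the authors' deposited table. DTL, of a ubiquitin ligase of the cell cycle, followed at -1.10, and RDH12, SPINK7, FA2H, GPR115, KRT75 and FBXO32 lay between -0.83 and -0.59 in the authors' deposited table. SPINK7, an epithelial protease inhibitor, stood at 19.8 RPKM with IL-13 against 35.2 in untreated cells, with a 209-base member 31596 bases from its start and the nearest IL-13 STAT6 region 648046 bases from that member. A STAT6-holding member lay within 50 kb of 1 of the 8 (GPR115), and 2 or more members within 50 kb of 2. Over the 638 tested near genes, 94 had a STAT6-holding member, 85 had 2 members and 38 had 3 or more. A contrast between falls and rises was not tested. All 8 were also lower with the combination than with vitamin D in the authors' deposited table.

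Among the lists of 20 or more genes, the IL-13 response list had the largest share of genes near members. Of the shorter marker lists, the endothelial one had a larger share (2 of 5 genes, 40%) and the squamous one a smaller share (2 of 9, 22.2%). Of the 26 genes of the esophageal IL-13 response list, 7 (26.9%) had a start within 50 kb of a member, where 3.49% of all genes in the tables did. Those were CAPN14, CCL24, CCL26, CISH, CTSC, SERPINB3 and SERPINB4, and the 6 tested were all higher with IL-13. CTSC, the protease cathepsin C, stood at 325.5 RPKM with IL-13 against 137.9 in untreated cells. Over the whole list 15 of 21 tested genes were higher and 1 lower, with a median log2 fold change of 1.33, in the authors' deposited table. Of all tested genes 12.3% were higher and 14% lower. ANO1 and SOCS1, 2 genes of the list picked out after their values were seen, rose with their nearest member 60595 and 117820 bases from the start. ANO1, a chloride channel, stood at 53.7 RPKM with IL-13 against 7.31 in untreated cells, and its intron held 3 members, a pair of them on a STAT6 region of 8.90-fold. The list was drawn up with IL-13 effects in such cells known.

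Of 27 receptor, JAK-STAT and SOCS genes 2 were near (CISH and STAT3), and both were higher with IL-13 in the authors' deposited table. STAT3 stood at 31.1 RPKM with IL-13 against 26.7 in untreated cells. Of 42 differentiation and cornified envelope genes, 32 of 40 tested were lower with IL-13 in the authors' deposited table, where 14% of all tested genes were. Only 2 of the 42 were near (GRHL3 and SPINK7), both lower. That is 4.76% of the list, close to the 3.49% of all genes that were near. Of 31 proteases and inhibitors 4 were near, with 3 higher (CAPN14, SERPINB3 and SERPINB4) and 1 lower (SPINK7). Of the 35 cytokines and chemokines measured, 6 were near. Among these CCL26 was higher and TGFA lower (41.5 RPKM with IL-13 against 55.1 in untreated cells), and CXCL10, CXCL11 and LIF did not pass. The share near a member was 7.41% of the receptor, JAK-STAT and SOCS genes, 12.9% of the proteases and inhibitors and 17.1% of the cytokines and chemokines.

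The cells carried squamous epithelial RNA throughout: KRT5, KRT6A and KRT14 stood between 5850 and 16863 RPKM in all 4 groups, while EPCAM was at 0.745 RPKM or less. Of the leukocyte markers, PTPRC and CD3E were at 0.00717 RPKM or less in every group and ITGAM at 0.149 or less, while CD68, a lysosomal protein abundant in macrophages, stood between 48.1 and 60.5 RPKM in all 4 groups. Of the endothelial markers, PECAM1 and CDH5 were at 0.0035 RPKM or less and KDR at 0.0453 or less. Of 9 squamous markers KRT14 and PERP had members nearby and neither passed with IL-13. None of the 7 fibroblast markers had a member nearby; 1 of them, COL1A1, was lower with IL-13 in the authors' deposited table (9.84 RPKM with IL-13 against 15.2 in untreated cells), and the others stood at 0.187 RPKM or less in every group. CD14, listed as a leukocyte marker, was near 1 member and stood at 3.67 RPKM with IL-13 and 215.5 with the combination, against 132.1 with vitamin D and 2.62 in untreated cells. The endothelial markers VWF and CLDN5 were near members, and both were higher with IL-13 in the authors' deposited table. VWF stood at 1.92 RPKM with IL-13 and 3.15 with the combination, against 1.18 with vitamin D and 0.514 in untreated cells.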

How the data were processed

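RNA was measured in 12 samples and chromatin in 16 ChIP libraries. Per the submitters' processing notes, Trim Galore, STAR, SAMtools, Bowtie and MACS2 were used with GRCh37/hg19; versions, and any control library in peak calling, are not stated there or in the labels. The deposited peak lists give, per the file headers, a pileup (read coverage at the summit), a fold enrichment (a ratio to background) and -log10 p and q values. The background implied by pileup and fold enrichment was nearly constant within each histone mark and STAT6 list, such as 1.51 for H3K27ac with IL-13. It varied between regions only in the VDR lists. The deposited RNA tables give the authors' RPKM as 1 value per group and the authors' log2 fold change, p-value and adjusted p-value for each pair of groups. Sample values, read totals and so RNA depth are unknown, no spread could be computed, and p-values reflect only the spread between samples that may be technical replicates. One deposited table whose name sets IL-13 beside the combination held columns for vitamin D and the combination, and was used as those columns say.

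Summits sharing chromosome, start and end were merged into regions, and entries without a q value were left out. Regions overlapped when they shared 1 base. Genes with an adjusted p of 1 were taken as not tested, and calls used an adjusted p of 0.05. Intervals are exact Clopper-Pearson 95% intervals and cover counting error only. Overlap counting was tested on simulated regions. Python 3.11.15, pandas 2.3.3, NumPy 2.4.6, SciPy 1.17.1 and matplotlib 3.10.9 were used. Some gene symbols had been turned into dates in the deposited tables, and 1 such gene is given by its RefSeq transcript.

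Members and gene lists were chosen with earlier results of these data known. Named regions were the 10 with the highest STAT6 and the 5 with the highest H3K27ac fold enrichment in IL-13 cells, the 5 widest, and those within 50 kb of a named or listed gene. Named genes were the 12 largest rises and 8 largest falls with IL-13 among called genes at 0.5 RPKM or more in 1 group, listed genes within 50 kb, and genes nearest to named regions. EDNRA, GCNT3, PKD2, the DUOX genes, PTPN4 and LTA4H were added after their values were seen. Alternatives changed the overlap, the q limit, the margin, the gene distance, the RPKM minimum and the p threshold. Of these, 1 of the 12 rises and 1 of the 10 STAT6-holding regions are not reported here.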

Additional observations from a re-analysis of the deposited data

How the results depend on the processing

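No paired analysis was possible because the files hold 1 value per group, although the labels share replicate numbers; for the same reason no replicate could be left out. A motif share within the members was not run, since no genome of the files' build was used here. Of 124 alternative values 64 stayed within the exact 95% binomial interval of the value reported (1.5 times for the number of members) and 60 did not; the cause was not tested. Pseudocounts of 0.1 and 1 could change only the sign of a fold change. In every alternative the share of near genes higher exceeded that of genes lower with IL-13. Asking that a 0.5 share of the shorter region be shared gave 1220 members, with 15.1% holding STAT6, 6.23% H3K4me3 and 7.54% within 2000 bases of a start. Near genes were then higher in 26% with IL-13, 29.9% on top of vitamin D and 30.2% with both against untreated cells. With all 4 lists at a -log10 q of 5 there were 216 members, 50.9% with STAT6 and 38.0% with H3K9ac. Their near genes were higher in 51.1% and lower in 5.67% with IL-13, 55.2% and 8.39% on top of vitamin D, and 53.1% and 6.12% with both. With no excluded region within 1000 bases there were 378 members, 28.8% with STAT6, 1.06% with H3K4me3 and 1.85% near a start. Near genes were higher in 38.7% and lower in 7.22% with IL-13, 41.4% and 7.33% on top of vitamin D, and higher in 39.8% with both and in 19.1% with vitamin D. With the IL-13 and combination regions alone at a -log10 q of 5 there were 82 members, 59.8% with STAT6 and 25.6% with H3K9ac. Near genes were higher in 54.4% and lower in 3.51% with IL-13, 66.7% and 8.77% on top of vitamin D, 60.3% and 6.90% with both, and 18.5% and 24.1% with vitamin D. Counting regions within 500 bases gave 29.1% for STAT6, 20.8% for H3K9ac, 5.47% for H3K4me3 and 4.59% for VDR, and asking the other factor or mark for a -log10 q of 5 gave 14.3% for STAT6 and 0.781% for H3K9ac. Within 5 kb of a start lay 12.8% of members. Genes within 20 kb were higher in 38.6% on top of vitamin D and 39.5% with both, and within 100 kb in 25.4% with IL-13, 30.1% on top of vitamin D and 31.4% with both. The nearest gene alone was higher in 36.8% with IL-13, 43.7% on top of vitamin D and 39.7% with both, and lower in 10.2% on top of vitamin D and 28.6% with vitamin D. At 1 RPKM or more 34.7% were higher with IL-13, 38.8% on top of vitamin D, 42.1% with both and 29.6% with vitamin D. Of all genes at that RPKM limit, 15.1%, 19.8%, 20.4% and 21.3% were higher in the same order. At an adjusted p of 0.01 31% were higher and 10.4% lower with both, against 12.4% and 12.7% of all genes. With vitamin D 20% were then higher, against 13.9% of all genes. Using all transcript starts named in the peak lists, and RefSeq promoters in place of the members' sequence, were chosen after seeing the data. Limits: each share rests on 1 library per treatment, read totals are unknown, and members have few reads.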
